A study of Mus musculus with 4 samples.

Results

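The tumor necrosis factor (TNF) superfamily ligands and receptors were examined by RNA-seq of mouse lungs, with and without Rab44. The members were all genes whose symbol starts with Tnfrsf or Tnfsf, together with Tnf, Lta, Ltb, Ltbr, Fas, Fasl, Cd27, Cd40, Cd40lg, Cd70 and Eda2r. This gave 44 of the 41079 genes in the count table, of which 18 were ligand genes, 25 were receptor genes and 1, Tnfsf13os, was an antisense RNA gene. The study compared female littermate mice on a C57BL/6 background, 8 to 14 weeks old, of both genotypes, WT and Rab44-KO, under normal and OVA-induced conditions. Rab44, which encodes a large Rab GTPase, was disrupted by CRISPR/Cas9 in both Rab44-KO groups. OVA-induced mice received 100 µg of ovalbumin (OVA) with aluminum hydroxide on days 0, 7 and 14 and then 100 µg of intranasal OVA in 50 µL on each of 4 days, and lungs were collected on day 21. The normal mice were labelled as having no treatment. Each of the 4 groups was 1 library, and the sources used here do not say how many mice it came from. There was therefore no replicate error, and the intervals below for single genes are exact 95% intervals for counting error only. They cannot show whether another mouse of the same group would differ. A bracket after a median of members is a 95% range taken from the ranked members. It holds no counting error and treats the members as independent.

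Total counts per library ranged from 18112901 to 19910236, and 41 or 42 members were detected in each library. Rab44 itself had 251 counts in normal WT and 810 in OVA-induced WT, against 1 and 0 in the Rab44-KO libraries, as the labels state. Genes that mark lung epithelium were abundant in all 4 libraries, with a summed level of 40408 CPM, the count scaled to library size, in the OVA-induced WT library and 31716 in the Rab44-KO one. In whole lung, fewer cells of a type and less RNA per cell cannot be told apart, and this holds for every difference given below.

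TNF superfamily ligands are trimeric proteins on the cell surface or shed from it, and they act by clustering receptors on neighbouring cells. Receptors with a death domain can recruit adaptors that activate caspases, whereas the other receptors bind TRAF adaptors and activate NF-kB, a family of transcription factors. In the allergic lung, members of the family act as costimulators of T cells, as survival signals for B cells and plasma cells, and as organisers of lymphoid tissue. Decoy receptors bind ligands without passing on a signal.

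The results below turn on members that were over 2-fold higher after OVA in WT lungs and, under OVA-induced conditions, over 2-fold lower in Rab44-KO lungs. Promoters are shown here for those of them with at least 100 counts in OVA-induced WT and a RefSeq entry. They are Ltb, Tnfrsf13c, Tnfrsf9 and Tnfsf14, whereas Tnfrsf26 had no entry. Each sequence runs 5′ to 3′ on the strand of the gene, from 250 bases before to 50 bases after an annotated start site, on GRCm38.p6. Capitals mark letters of an NF-kB motif (GGG, any 3 bases, TTCC) or an AP-1 motif (TGANTCA), searched on both strands.
Ltb (chr17:35194257-35194556, + strand): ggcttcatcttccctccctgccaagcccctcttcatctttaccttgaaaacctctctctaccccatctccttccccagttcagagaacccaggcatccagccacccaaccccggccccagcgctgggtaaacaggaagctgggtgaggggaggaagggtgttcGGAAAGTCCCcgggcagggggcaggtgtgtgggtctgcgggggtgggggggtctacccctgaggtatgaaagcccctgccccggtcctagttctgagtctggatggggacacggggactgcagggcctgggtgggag
Tnfrsf9, upstream start (chr4:150919905-150920204, + strand): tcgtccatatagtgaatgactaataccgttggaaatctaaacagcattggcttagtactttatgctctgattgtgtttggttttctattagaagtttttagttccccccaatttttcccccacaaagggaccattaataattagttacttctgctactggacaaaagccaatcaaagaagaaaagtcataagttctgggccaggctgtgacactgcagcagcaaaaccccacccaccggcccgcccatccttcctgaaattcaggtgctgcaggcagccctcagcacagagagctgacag
Tnfrsf9, downstream start (chr4:150927749-150928048, + strand): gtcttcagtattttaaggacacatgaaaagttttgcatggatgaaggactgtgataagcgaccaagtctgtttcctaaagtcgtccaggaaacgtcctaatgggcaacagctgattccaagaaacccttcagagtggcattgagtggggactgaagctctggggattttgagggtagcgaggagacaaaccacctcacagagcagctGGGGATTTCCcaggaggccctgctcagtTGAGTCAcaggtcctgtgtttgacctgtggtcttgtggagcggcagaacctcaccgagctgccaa
Tnfsf14 (chr17:57194132-57194431, - strand): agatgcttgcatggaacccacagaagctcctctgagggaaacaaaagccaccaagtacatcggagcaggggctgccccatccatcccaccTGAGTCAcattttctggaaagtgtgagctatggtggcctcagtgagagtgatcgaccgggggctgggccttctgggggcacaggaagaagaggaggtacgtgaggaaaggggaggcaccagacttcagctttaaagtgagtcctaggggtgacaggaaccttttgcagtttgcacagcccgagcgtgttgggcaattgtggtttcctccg
Tnfrsf13c (chr15:82224331-82224630, - strand): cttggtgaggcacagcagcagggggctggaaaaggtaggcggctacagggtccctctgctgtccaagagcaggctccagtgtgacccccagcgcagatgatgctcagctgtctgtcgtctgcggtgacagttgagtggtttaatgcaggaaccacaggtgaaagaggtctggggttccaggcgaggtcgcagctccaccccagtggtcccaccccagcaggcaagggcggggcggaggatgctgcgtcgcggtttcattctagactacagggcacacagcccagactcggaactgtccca

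The Ltb window held the NF-kB letters with their first base at -87 from the start site. In the downstream Tnfrsf9 window the NF-kB letters began at -43 and the AP-1 letters at -15, while the upstream window held neither. The Tnfsf14 window held the AP-1 letters at -160, and the Tnfrsf13c window held neither motif. RefSeq gave 37 windows for 33 of the 44 members. The NF-kB letters were in 4 of these 37 windows (Eda2r, Ltb, Tnfrsf25 and Tnfrsf9) and in 5.56% of all 32851 promoter windows, whereas the AP-1 letters were in 7 of the 37 and in 7.81% of all. A match describes the letters in this window and is not evidence that a factor was bound there.

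Levels were compared between genes in TPM, a read share that accounts for gene length. Tnfrsf1a, the main death-domain receptor for TNF, was the highest member on average, with 153 and 164 TPM in normal WT and Rab44-KO lungs and 136 and 159 TPM in the OVA-induced WT and Rab44-KO lungs. Tnfsf10, which encodes the death ligand TRAIL, had 107, 117, 51.9 and 62.4 TPM in the same order. Its level in both OVA-induced libraries was below that in both normal libraries. Ltbr, the lymphotoxin beta receptor, had 70.3, 72.2, 67.5 and 64.6 TPM in this order. Ltb, which encodes the membrane-bound subunit of its ligand, had 47.8, 32.1, 94.4 and 40.6 TPM. Fas, a death receptor, had 41.8, 50.9, 37.6 and 63.3 TPM. The OVA-induced WT library was thus the highest of the 4 for Ltb. It was the lowest for Fas on TPM only, since by CPM normal WT was lowest, at 43.1 against 43.7. Tnf itself was far lower, at 2.02, 1.20, 2.57 and 1.39 TPM, and Tnfrsf9 was at 1.32, 1.24, 14.3 and 1.50 TPM. Cd70, the ligand of CD27, had 0 counts in all 4 libraries, a value that allows up to 3 counts, or 0.154 to 0.164 CPM. Tnfsfm13, a readthrough gene across Tnfsf12 and Tnfsf13, also had 0 counts in all, but 76.7% of its exonic bases are shared with those genes on the same strand, so its counts set no limit. Tnfsf4, which encodes OX40 ligand, had 2, 0, 1 and 5 counts, and Tnfsf18, which encodes GITR ligand, had 3, 2, 0 and 5 counts, so no fold is given for either.

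**Figure D1:**
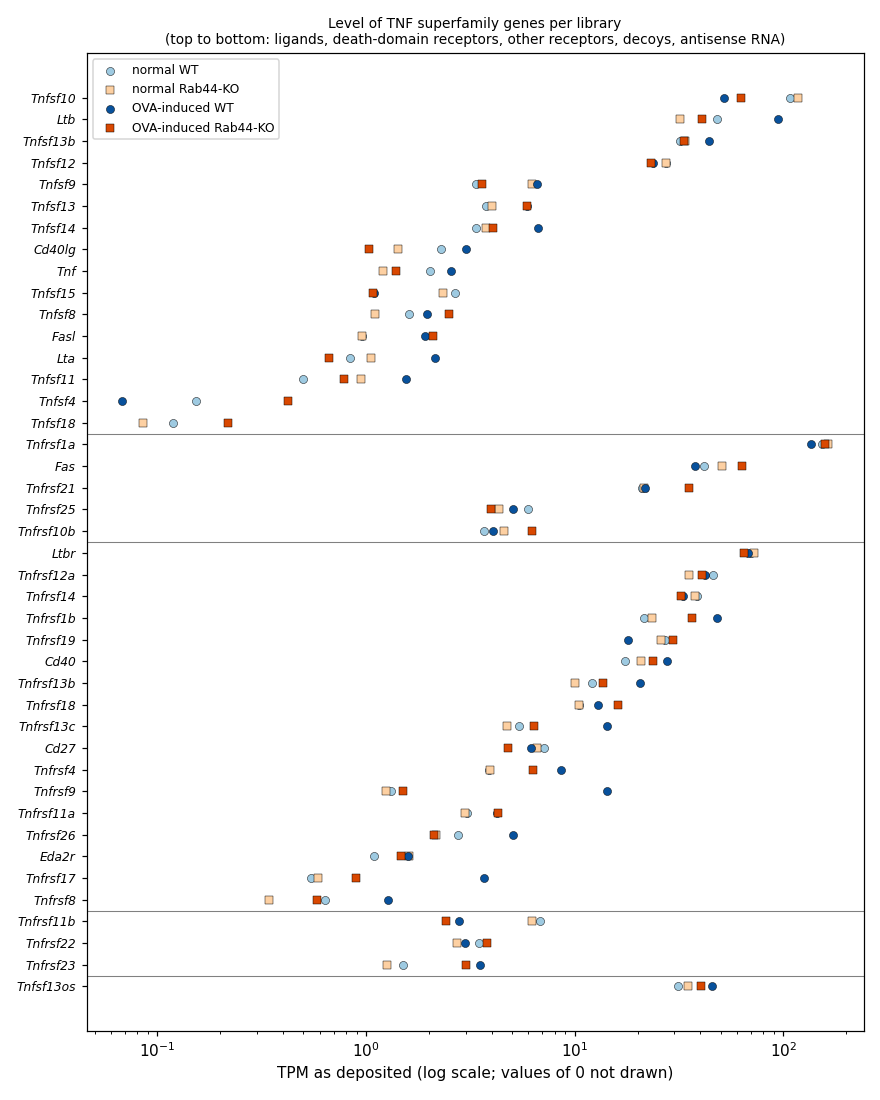
TPM of each detected member (rows, grouped by role) in each of the 4 libraries on a log scale, with circles for WT, squares for Rab44-KO, pale symbols for normal and dark symbols for OVA-induced lungs. Tnfrsf1a is the highest receptor in every library at 136 to 164 TPM, and the OVA-induced WT symbol stands apart to the right for Tnfrsf9 at 14.3 TPM against 1.24 to 1.50 in the other libraries.

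The first question was how the members responded to OVA in WT lungs. Each log2FC compares CPM on a log2 scale, scaled between libraries by the TMM method, for genes that reached 10 counts in either library. In WT, 14 of 40 members (35%) were over 2-fold higher after OVA, where 8.99% of the 19023 genes compared were. A further 2 members (5%) were over 2-fold lower, where 5.20% of genes were. The median log2FC of the members was 0.65 (0.23 to 1.05), against 0.00366 over all genes compared. On TPM, 8 members were over 2-fold higher and 3 lower, since Fasl, Ltb, Tnfrsf26, Tnfrsf8, Tnfsf14 and Tnfsf9 were under 2-fold and Tnfsf10 passed. On that scale the median of all genes was lower by 0.17, and their split moved from 1710 higher and 989 lower to 1273 higher and 1102 lower. The 14 members higher by CPM were 6 ligands, 7 receptors without a death domain and 1 decoy receptor.

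The receptor with the largest log2FC was Tnfrsf9, which encodes 4-1BB, a costimulator of activated T cells (chr4:150914562-150946102 on GRCm38). It had 25 counts in normal WT and 309 in OVA-induced WT, a log2FC of 3.61 (3.03 to 4.27). The OVA-induced WT library was the only one of the 4 above 26 counts. Tnfrsf17, the plasma cell receptor BCMA (chr16:11313812-11320074), went from 6 to 46 counts, a log2FC of 2.90 (1.70 to 4.44). It reached 10 counts in OVA-induced WT alone, so it could enter a comparison only through that library. Tnfrsf13c, the B cell survival receptor BAFF-R (chr15:82221743-82224369), had 85 and 257 counts, a log2FC of 1.58 (1.22 to 1.96). Tnfrsf13b, which encodes the related receptor TACI, was just under the threshold with 287 and 555 counts, a log2FC of 0.94.

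Receptors of T cells and myeloid cells were among the others. Tnfrsf1b, the TNF receptor without a death domain, had 857 and 2179 counts, a log2FC of 1.33 (1.22 to 1.45). Tnfrsf4, which encodes the T cell costimulator OX40, had 40 and 101 counts, a log2FC of 1.32 (0.78 to 1.89). Tnfrsf8, which encodes CD30, had 18 and 41 counts, a log2FC of 1.17 (0.34 to 2.06), an interval that includes changes much smaller than 2-fold. The decoy receptor gene Tnfrsf23 had 50 and 133 counts, a log2FC of 1.40 (0.92 to 1.90), and its neighbour Tnfrsf26 had 96 and 200 counts, a log2FC of 1.05 (0.69 to 1.41). Of the ligands, Ltb was the most abundant of those higher, with 423 and 951 counts and a log2FC of 1.16 (0.99 to 1.32). Tnfsf14, which encodes LIGHT, had 52 and 117 counts, a log2FC of 1.16 (0.67 to 1.66), and Tnfsf9, the ligand of 4-1BB, had 41 and 91 counts, a log2FC of 1.14 (0.59 to 1.71). The other ligands over 2-fold higher were low in counts. Tnfsf11, which encodes RANKL, had 9 and 32 and so reached 10 counts only after OVA, Lta, which encodes lymphotoxin alpha, had 11 and 32, and Fasl, the ligand of Fas, had 15 and 34.

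Fewer members were lower after OVA in WT. Tnfsf15, which encodes TL1A, had 124 and 58 counts, a log2FC of -1.11 (-1.58 to -0.65). Tnfrsf11b, which encodes the decoy receptor osteoprotegerin, had 151 and 71 counts, a log2FC of -1.10 (-1.53 to -0.68). Tnfsf10 (chr3:27317028-27342427), with 4278 and 2362 counts, had a log2FC of -0.87 (-0.94 to -0.80), which became -1.04 on TPM.

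In Rab44-KO lungs, only 2 of 39 members (5.13%) were over 2-fold higher after OVA, where 6.44% of the 19073 genes compared were. A further 3 members (7.69%) were over 2-fold lower, where 3.85% of genes were. The median log2FC was 0.08 (-0.25 to 0.31), and on TPM the counts were 3 higher and 2 lower, while those of all genes moved from 1229 higher and 734 lower to 1287 higher and 481 lower. The 2 higher members were Tnfrsf23, with 39 and 91 counts and a log2FC of 1.12 (0.57 to 1.71), and Tnfsf8, the ligand of CD30, with 34 and 75 counts and a log2FC of 1.04 (0.44 to 1.68). Fasl, with 14 and 30 counts, lay at a log2FC of 0.998 (0.04 to 2.03), just short of the threshold. The 3 lower members were Tnfrsf11b at -1.49 (-2.0 to -1.01), Tnfsf15 at -1.24 (-1.78 to -0.73) and Tnfsf10, with 4368 and 2277 counts, at -1.04 (-1.11 to -0.96). These 3 genes lay below 0 in WT as well.

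Of the members higher in WT, Tnfrsf9 had 22 counts in normal and 26 in OVA-induced Rab44-KO, a log2FC of 0.14 (-0.73 to 1.03). Ltb had 265 and 328 counts, a log2FC of 0.21, and Tnfrsf13c had 70 and 92, a log2FC of 0.30. Tnfrsf1b had 866 and 1324 counts, a log2FC of 0.52 (0.39 to 0.64), so it was higher after OVA in both genotypes by its counting interval. Tnfsf9 went the other way, with 71 counts in normal and 40 in OVA-induced Rab44-KO, a log2FC of -0.92 (-1.52 to -0.34). The response in Rab44-KO was below that in WT for 32 of the 39 members compared in both genotypes (82.1%), against 52.5% of 18352 genes, and the median of Rab44-KO minus WT response was -0.40 for the members and -0.04 for all genes. On TPM it was lower in Rab44-KO for 24 of the 39 members (61.5%), against 31.7% of all genes, and the medians were -0.10 and 0.26. These differences between responses were not tested, since each rests on 4 single libraries.

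**Figure D2:**
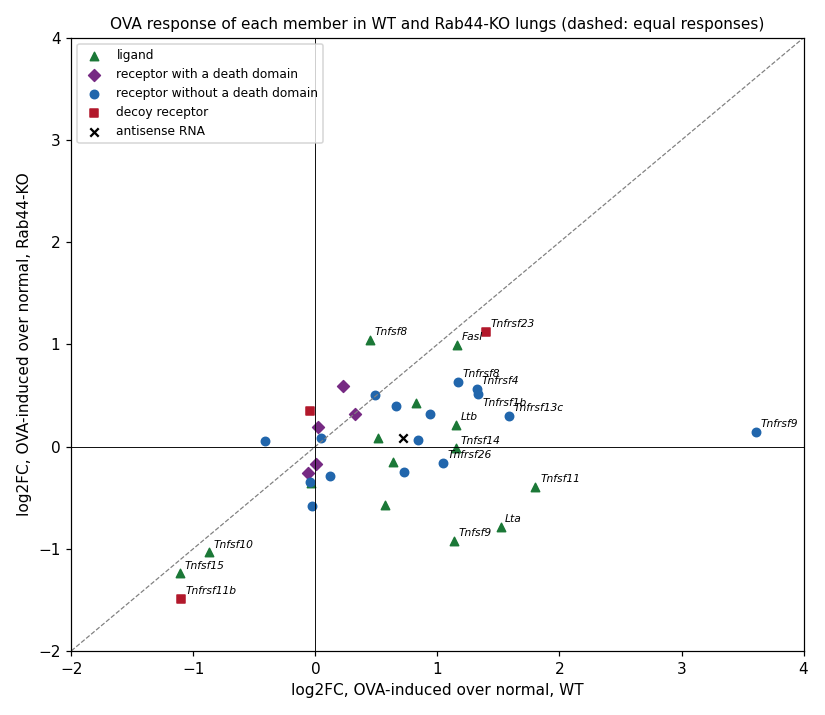
log2FC of each of the 39 members compared in both genotypes, OVA-induced over normal, in WT (x axis) and Rab44-KO (y axis), with the symbol giving the role of the gene and the dashed line marking equal responses. Points, by CPM, lie below the line for 32 of 39 members (24 on TPM), with Tnfrsf9 farthest to the right at 3.61 in WT and 0.14 in Rab44-KO, and Tnfsf10, Tnfsf15 and Tnfrsf11b lie near the line at the lower left.

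The main question of the study was how the absence of Rab44 alters the OVA-induced lung. Under OVA-induced conditions, 12 of 40 members (30%) were over 2-fold lower in Rab44-KO than in WT, where 7.34% of the 19259 genes compared were. None was over 2-fold higher, where 8.40% of genes were. The median log2FC was -0.55 (-0.76 to -0.36), against -0.02 over all genes compared. On TPM the members' median was -0.21. The counting interval lay below 0 for 28 members (70%), where it did for 33.8% of all genes compared, and above 0 for 3 (7.5%), which were Fas, Tnfrsf19 and Tnfrsf21, where it did for 29.7%. On TPM the median over all genes compared was higher by 0.32, the split over all genes moved from 1617 higher and 1413 lower to 2602 higher and 777 lower, and 8 members were over 2-fold lower, without Tnf, Tnfsf11, Tnfsf14 and Tnfsf9. The sign of 5 members with small differences also changed on TPM, namely Fasl, Tnfrsf11a, Tnfrsf18, Tnfrsf1a and Tnfsf10. Over all genes compared, the trend with gene length ran from -0.40 in the shortest 25% to 0.32 in the longest 25%. Of the 12 lower members, Ltb, Cd40lg, Tnfrsf17, Tnfsf9, Lta, Tnf and Tnfsf14 were in the shortest 25% of counted genes. The others, Tnfrsf13c, Tnfsf11, Tnfrsf9, Tnfrsf8 and Tnfrsf26, were at length percentiles of 25.63 to 61.25. The part of gene length in the members' differences was not tested.

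By role, 7 of 14 ligands (50%) and 5 of 17 receptors without a death domain (29.4%) were over 2-fold lower, while 0 of 5 death-domain receptors and 0 of 3 decoy receptors were. With 7.34% of all genes over 2-fold lower and so few genes, the counts of 0 do not set the death-domain and decoy receptors apart. The median log2FC was -0.89 for the ligands and -0.69 for the receptors without a death domain. The comparison shares its OVA-induced WT library with the WT response, so a high value in that library raises the response and lowers the Rab44-KO over WT ratio alike.

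**Figure D3:**
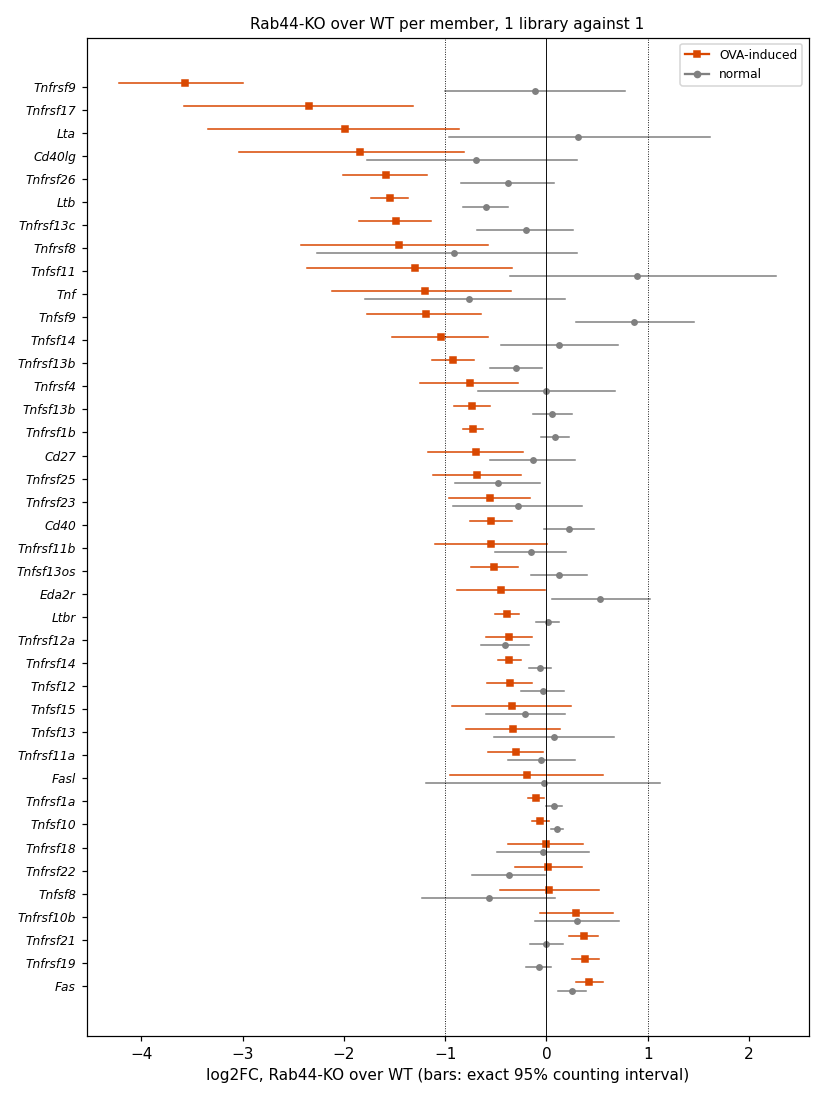
log2FC of Rab44-KO over WT for the 40 members compared under OVA-induced conditions (orange squares) and the 39 of them compared under normal conditions (grey circles, Tnfrsf17 left out), with bars for the exact 95% counting interval and dotted lines at 2-fold. Under OVA-induced conditions 12 members lie left of the -1 line and none right of the 1 line, whereas under normal conditions no member lies beyond either line.

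Among the ligands, Ltb (chr17:35194439-35196320) had 951 counts in the OVA-induced WT library and 328 in the Rab44-KO one, a log2FC of -1.54 (-1.73 to -1.36). Its neighbours Lta (chr17:35203165-35205351) and Tnf (chr17:35199381-35202007) lie in the same cluster. Lta had 32 and 8 counts, a log2FC of -1.99 (-3.34 to -0.86), and Tnf had 39 and 17 counts, a log2FC of -1.20 (-2.12 to -0.35). Lta and Tnf rested on few reads, Lta reached 10 counts under OVA-induced conditions in WT alone, and Tnf was under 2-fold on TPM. Cd40lg, by which T cells signal to B cells, had 36 and 10 counts, a log2FC of -1.84 (-3.03 to -0.82). Tnfsf11 had 32 and 13 counts, a log2FC of -1.30 (-2.36 to -0.34). Tnfsf9 had 91 and 40 counts, a log2FC of -1.19 (-1.77 to -0.64), and Tnfsf14 had 117 and 57 counts, a log2FC of -1.05 (-1.53 to -0.58). The ligand gene Tnfsf13b, which encodes the B cell survival factor BAFF, had 710 and 430 counts, a log2FC of -0.73 (-0.91 to -0.56). Tnfsf12, which encodes TWEAK, had 371 and 290 counts, a log2FC of -0.36 (-0.59 to -0.14), and Tnfsf13, which encodes APRIL, had 91 and 73 counts, a log2FC of -0.33 (-0.79 to 0.13). On TPM Tnfsf12 was at -0.04 and Tnfsf13 at -0.00075. Tnfsf10 had 2362 and 2277 counts and a log2FC of -0.06 (-0.15 to 0.02), and Tnfsf8 had 73 and 75 counts and a log2FC of 0.03 (-0.46 to 0.51). The lower ligands thus did not include TRAIL, the ligand with the highest mean TPM, whose level was lower after OVA in both genotypes.

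Among the receptors without a death domain, Tnfrsf9 had 309 counts in the OVA-induced WT library and 26 in the Rab44-KO one, a log2FC of -3.57 (-4.22 to -3.0). Its level in OVA-induced Rab44-KO was close to the 25 and 22 counts of the normal libraries. Tnfrsf17 had 46 and 9 counts, a log2FC of -2.35 (-3.58 to -1.32). Tnfrsf13c had 257 and 92 counts, a log2FC of -1.49 (-1.85 to -1.14). Tnfrsf13b had 555 and 295 counts, a log2FC of -0.92 (-1.13 to -0.71). All 3 receptors of the BAFF and APRIL ligands had intervals below 0. Tnfrsf26 (chr7:143607659-143628722) had 200 and 67 counts, a log2FC of -1.59 (-2.01 to -1.18), and Tnfrsf8 had 41 and 15, a log2FC of -1.45 (-2.42 to -0.58). Receptors lower by less than 2-fold included Tnfrsf4, with 101 and 60 counts and a log2FC of -0.76 (-1.25 to -0.29), and Tnfrsf1b, with 2179 and 1324 counts and a log2FC of -0.73 (-0.83 to -0.63). Cd27, a costimulatory receptor of T cells, had 103 and 64 counts, a log2FC of -0.69 (-1.17 to -0.23). Cd40, the receptor by which B cells and myeloid cells receive help, had 476 and 328 counts, a log2FC of -0.55 (-0.75 to -0.34). Tnfrsf14, a receptor of LIGHT, had 1509 and 1178 counts, a log2FC of -0.37 (-0.48 to -0.26). Tnfrsf11a, the receptor of RANKL, had 253 and 206, a log2FC of -0.31 (-0.58 to -0.03), and Tnfrsf12a, the receptor of TWEAK, had 373 and 291, a log2FC of -0.37 (-0.59 to -0.14). On TPM Tnfrsf14 and Tnfrsf12a were at -0.04 and Tnfrsf11a at 0.02. Not all T cell receptors of the family were lower. Tnfrsf18, which encodes GITR, had 123 counts in both libraries, a log2FC of -0.01 (-0.38 to 0.36).

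**Figure D4:**
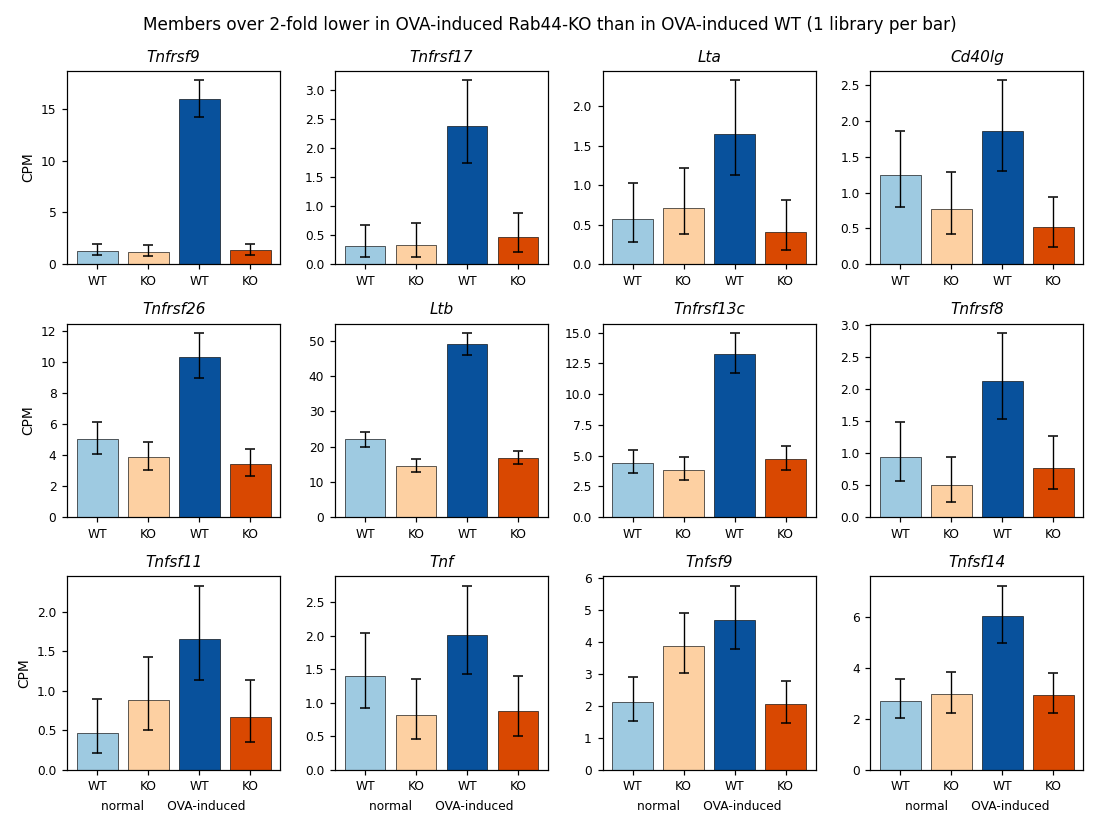
TMM-scaled CPM of the 12 members over 2-fold lower in Rab44-KO than in WT under OVA-induced conditions, 1 bar per library (normal on the left and OVA-induced on the right of each panel, WT before Rab44-KO), with exact 95% Poisson intervals of the count as error bars. The OVA-induced WT bar is the highest in all 12 panels, where its place above the OVA-induced Rab44-KO bar is fixed by the choice of panels. For Tnfrsf9 it stands for 309 counts against 22 to 26 in the other libraries. For Cd40lg and Tnf the interval of OVA-induced over normal in WT included 0.

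Of the 5 death-domain receptors, 2 had intervals above 0 (Fas and Tnfrsf21), 2 had intervals below 0 (Tnfrsf25 and Tnfrsf1a) and the interval of Tnfrsf10b included 0. Fas had 847 counts in the OVA-induced WT library and 1144 in the Rab44-KO one, a log2FC of 0.42 (0.29 to 0.55), and 828 and 939 counts in the normal libraries. Tnfrsf21, which encodes death receptor 6, had 728 and 945 counts under OVA-induced conditions, a log2FC of 0.37 (0.23 to 0.51), against 617 and 586 under normal conditions. Tnfrsf19, a receptor without a death domain found in epithelial and mesenchymal tissues, had 813 and 1069 counts, a log2FC of 0.39 (0.25 to 0.52). Its OVA-induced Rab44-KO value was close to the 1072 counts of normal WT, so the OVA-induced WT library was the lowest of the 4. On TPM these log2FCs were 0.75 for Fas, 0.69 for Tnfrsf21 and 0.71 for Tnfrsf19. Tnfrsf1a had 2697 and 2526 counts, a log2FC of -0.10 (-0.18 to -0.03), a sign that was reversed on TPM. Tnfrsf25, the death-domain receptor of TL1A on lymphocytes, had 118 and 74 counts, a log2FC of -0.68 (-1.12 to -0.25). Tnfrsf10b, the mouse TRAIL receptor, had 119 and 147 counts, a log2FC of 0.30 (-0.06 to 0.66).

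Under normal conditions the same comparison gave 39 members, of which 0 were over 2-fold higher, where 2.77% of the 18718 genes compared were, and 0 were over 2-fold lower, where 2.0% were. The median log2FC was -0.04 (-0.21 to 0.07). The counting interval lay above 0 for 4 members (10.3%) and below 0 for 5 (12.8%), close to the 14.6% and 14.8% of all genes compared. Ltb had 423 counts in normal WT and 265 in normal Rab44-KO, a log2FC of -0.60 (-0.83 to -0.38), so its level was also lower without Rab44 in the absence of OVA. Tnfsf9 had 41 and 71 counts, a log2FC of 0.86 (0.29 to 1.46), the opposite sign to the OVA-induced comparison. Tnfrsf9 had 25 and 22 counts, a log2FC of -0.11. Eda2r, a receptor for ectodysplasin A2, had 64 and 88 counts, a log2FC of 0.53 (0.05 to 1.02).

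Ligands and their receptors were then set side by side over 24 known pairs, which share genes and are therefore not independent. Both genes passed the count minimum in 21 pairs under OVA-induced conditions. Both had a log2FC below 0 in 18 of these 21 pairs in Rab44-KO relative to WT, both were above 0 in none, and they differed in sign in 3, which were Fasl with Fas, Tnfsf8 with Tnfrsf8, and Tnfsf10 with Tnfrsf10b. Since 34 of the 40 members were below 0, most pairs would be so however the members were paired. On TPM both were below 0 in 15 pairs and above 0 in 2, since the signs of Tnfrsf1a and Tnfrsf11a among others were reversed. In the largest joint difference, Tnfsf9 was at -1.19 and Tnfrsf9 at -3.57. In the lymphotoxin pair, Ltb was at -1.54 while Ltbr, with 1446 and 1111 counts, was at -0.39 (-0.50 to -0.28), or at -0.06 on TPM. In the CD40 pair, Cd40lg was at -1.84 and Cd40 at -0.55. In WT both genes were above 0 after OVA in 16 of 21 pairs, or in 11 on TPM, whereas in Rab44-KO they were in 4 of 19 on either scale. Under normal conditions Rab44-KO over WT differed in sign in 12 of 19 pairs.

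Downstream genes were described from lists. The first list held 22 genes for adaptors, kinases and their regulators that act below the receptors, such as Tradd, Fadd, the Traf genes and Ripk1. None was over 2-fold different in any of the 4 comparisons, and their median log2FC in OVA-induced Rab44-KO over WT was -0.05. Of 12 NF-kB subunits, inhibitors and kinases, 1 was over 2-fold lower in OVA-induced Rab44-KO, a share near the 7.34% of all genes. This was the inhibitor gene Nfkbie, with 340 counts in the OVA-induced WT library and 146 in the Rab44-KO one, a log2FC of -1.23 (-1.52 to -0.95). Of 19 genes known to respond to NF-kB, 8 were over 2-fold lower and 0 higher, with a median log2FC of -0.44. The 8 include Nfkbie again, and Il6, which had 13 counts in WT and 6 in Rab44-KO and so reached 10 in WT alone, with an interval that included 0 (-2.81 to 0.37). The lower ones with at least 100 counts included the survival gene Bcl2a1b, with 745 and 245 counts, and the chemokine genes Ccl20, with 109 and 12 counts, Cxcl10, with 107 and 21, and Ccl2, with 100 and 23. Bcl2a1b is 1 of several near-identical copies, so its counts are uncertain. The adhesion genes Icam1, at -0.42, and Vcam1, at -0.23, differed less, and intervals lay above 0 for the inhibitor gene Nfkbia, at 0.51 (0.45 to 0.57), and for Birc3, at 0.18 (0.08 to 0.29). After OVA in WT, 9 of the 19 were over 2-fold higher and none lower, where 8.99% and 5.20% of all genes were. Of those 9, Cxcl2, Cxcl10, Ccl20 and Il6 reached 10 counts only after OVA. In Rab44-KO, 3 of 18 were higher and 1 was lower, where 6.44% and 3.85% of all genes were. Of those 3, Cxcl2 and Ccl20 reached 10 counts only after OVA. Of the 5 lymphotoxin response genes with enough counts, Ccl19 alone was over 2-fold lower in OVA-induced Rab44-KO, with 26 and 12 counts, Cxcl13 had 227 and 135 counts, a log2FC of -0.76 (-1.08 to -0.45), and Ccl21a was at -0.62 (-0.73 to -0.51). Cxcl12, the most abundant, had 5851 and 7597 counts, a log2FC of 0.37 (0.32 to 0.42), and Chst4 was at 0.42 (-0.04 to 0.89). The list summed to 401 CPM in WT and 456 in Rab44-KO. The family genes outside the naming rule, Eda, Edar, Ngfr, Relt and the adaptor Edaradd, had none over 2-fold different between genotypes in either condition. With OVA, the receptor gene Relt was over 2-fold higher in WT, at 1.38, and in Rab44-KO, at 1.46, Edar was lower, at -1.50 and -2.01, and Edaradd was at 1.08 in Rab44-KO.

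The lists of cell type markers were read against the 7.34% of all genes over 2-fold lower and the 8.40% over 2-fold higher in OVA-induced Rab44-KO over WT, and counts of 1 in a list of 6 or 7 do not stand apart from these shares. T cell markers had a summed level of 56.2 and 59.5 CPM in the normal WT and Rab44-KO lungs and of 125 and 65.8 CPM in the OVA-induced ones, and 4 of 8 were over 2-fold lower in OVA-induced Rab44-KO, with a median log2FC of -0.93. Markers of regulatory and activated T cells summed to 23.2, 24.5, 42.8 and 29.5 CPM in the same order, with 1 of 6 over 2-fold lower. All 6 were below 0, with a median of -0.70, where 51.9% of all genes compared were below 0. The OVA-induced WT library was the highest for both lists, as it was for Tnfrsf9 and Cd40lg. It was not for Cd27, at 5.42 CPM in normal WT and 5.32 in OVA-induced WT. Tnfrsf18 was at 6.35 and 6.31 CPM in the OVA-induced WT and Rab44-KO libraries. B cell markers summed to 174, 130, 354 and 229 CPM, with 1 of 6 over 2-fold lower, all 6 below 0 and a median of -0.57. Plasma cell markers summed to 339, 327, 1207 and 516 CPM, with 4 of 6 lower, Sdc1 at -0.30 and Prdm1 at 0.04. Among these, Sdc1 had the most counts in the normal libraries, 5593 in WT and 4842 in Rab44-KO. Jchain had the most in the OVA-induced ones, 15799 and 4761, so the sums rest on different genes. Markers of dendritic cells, with 4 of 6 lower and Zbtb46 at 0.77 in the other direction, and of macrophages, with 3 of 6 lower, also had their highest sums in OVA-induced WT, at 256 and 673 CPM, against 146 and 352 in OVA-induced Rab44-KO. NK cell markers had 2 of 6 lower. The eosinophil markers Ccr3, Il5ra, Prg2 and Siglecf were over 2-fold lower, and the granule gene Epx was at 1 count in WT and 0 in Rab44-KO. Of the type 2 lymphocyte markers, Gata3 and Il1rl1 were over 2-fold lower, while Il4, with 17 and 6 counts, and Il13, with 13 and 0, reached 10 counts in WT alone and Il5 had 8 and 7. Of the mast cell markers, Cpa3 was at -0.70 and Ms4a2 at -0.71, while Cma1, with 27 and 4 counts, and Tpsb2, with 10 and 1, reached 10 counts in WT alone and Mcpt4 had 1 and 8. The sum of neutrophil markers was 530 CPM with OVA in WT and 661 in Rab44-KO, with 4 of 6 intervals above 0, Retnlg at -0.39 and Ly6g at 9 and 20 counts. Endothelial markers summed to 2666 and 3856 CPM, with 2 of 6 over 2-fold higher. Epithelial markers had 1 of 7 lower and mesenchymal markers none. Heart muscle markers summed to 700 and 772 CPM in the normal WT and Rab44-KO lungs and to 306 and 679 CPM in the OVA-induced ones. Of these 6 markers, 5 were over 2-fold lower after OVA in WT and 3 were over 2-fold higher in Rab44-KO over WT with OVA, so the OVA-induced WT library stood apart here as well. The part of these shifts in the members' differences was not tested.

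**Figure D5:**
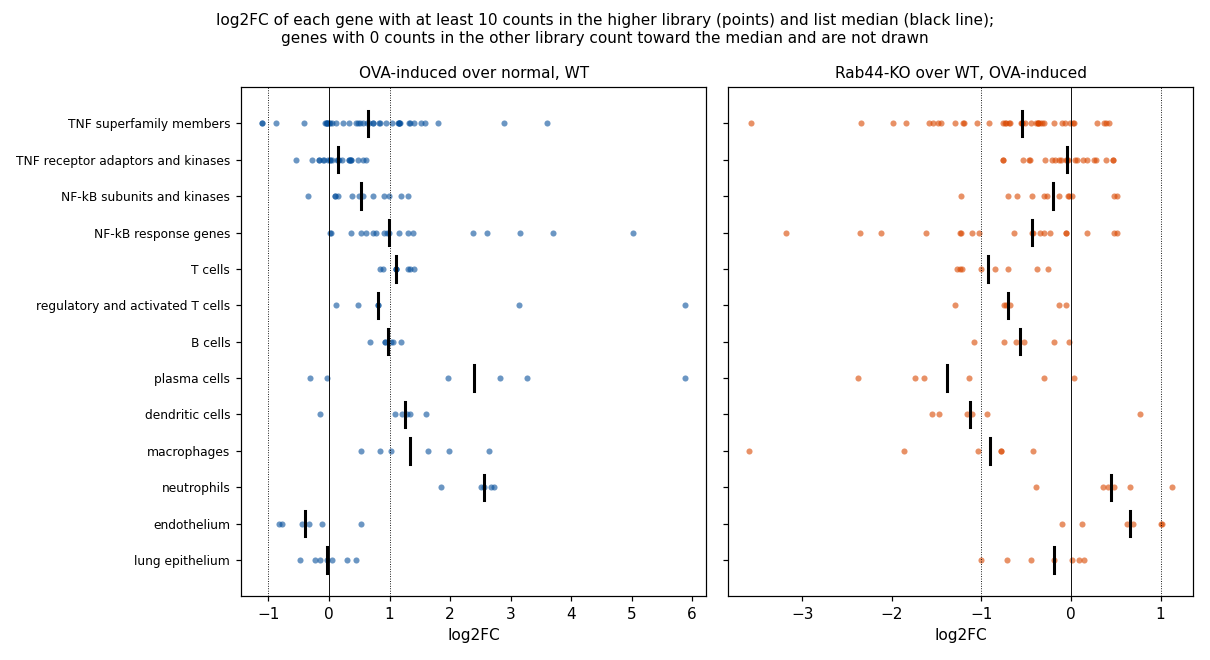
log2FC of single genes (points) and the median (black line) for the TNF superfamily members, 3 lists of signalling genes and 9 lists of cell type markers, for OVA-induced over normal in WT (left) and for Rab44-KO over WT under OVA-induced conditions (right), with dotted lines at 2-fold. T cell markers have medians of 1.11 on the left and -0.93 on the right, the medians of the adaptors and kinases lie near 0 in both, and the endothelial median is above 0 on the right, at 0.66.

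The counts of some members are uncertain because of shared sequence or position, as annotated in GENCODE M21, which may differ from the annotation used for counting. Tnfsf12 and Tnfsf13 share 48.3% and 60.1% of their exonic bases with the readthrough gene Tnfsfm13 on the same strand. Tnfsf13os overlaps Tnfsf13 and Tnfsfm13 together on the other strand over 22.8% of its exonic bases, and it had 222, 230, 369 and 260 counts in the order used above for TPM. Tnfrsf22 and Tnfrsf23 share stretches of identical sequence, and Tnfrsf18 and Tnfsf9 overlap antisense genes over 27.2% and 14.9% of their exonic bases. The libraries were made with a directional kit, but how strand was set in counting is not given in the sources used here.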

How the data were processed

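RNA was measured by RNA-seq in whole lung, 1 library per group, and groups were taken from the labels. Libraries were made with a directional kit, and reads were paired, of 150 bp. The authors used HISAT2 on GRCm38 after trimming, took gene counts from featureCounts, and deposited these raw counts beside TPM, which are the counts rescaled by 1 length per gene. DESeq2 is also named in the submitters' processing notes. The versions of these tools and the strand setting in counting are not given in the sources used here. Deposited gene starts differed from those of GENCODE M21 for all 44 members, by a median of 165246 bases, so the deposited coordinates are not those of the stated GRCm38 as annotated in M21, and the build behind the counts is in doubt. Printed positions and overlaps are from M21 on GRCm38 and not from the deposited table.

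Libraries were scaled by TMM (edgeR 4.0.16, R 4.3.3), and log2FC compared CPM on a log2 scale after a prior count of 0.125 was added, in genes that reached 10 counts in either library. Over 2-fold means beyond a log2FC of 1. Intervals of single genes are exact 95% Clopper-Pearson (ratios) and Poisson (levels) intervals covering counting error alone. Brackets after a median of members are 95% binomial order-statistic ranges over the members, which treat the genes as independent. For 0 counts the limit was 3. No p-value was computed, and no additive fit of genotype and OVA was run. Python 3.11.15, numpy 2.4.6, pandas 2.3.3, scipy 1.17.1 and matplotlib 3.10.9 were used, with DESeq2 1.42.0 for alternative size factors. The steps were tested on simulated data. Alternatives were other scalings, a prior count of 2, count minimums of 1 and 50, TPM with a pseudocount of 0.1, removal of the trend with gene length, and intervals wholly beyond 2-fold.

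Members that reached 10 counts, were over 2-fold different in any comparison and had 30 or more counts in some library, the 5 with the highest mean TPM, and their ligands or receptors were named with counts. From the pathway lists, at most 5 genes with at least 100 counts were to be named per comparison, and Icam1, Vcam1, Nfkbia, Birc3 and the lymphotoxin response genes were named after their values were seen. The members and lists were chosen with earlier results of these data known.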

Additional observations from a re-analysis of the deposited data

Results flagged for a closer look

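The OVA response of 2 members had counting intervals on opposite sides of 0 in the genotypes, which 2674 of 18352 genes also had. For Tnfsf9, the ligand of 4-1BB, the log2FC was 1.14 in WT and -0.92 in Rab44-KO, a difference of -2.06. For Ltbr the log2FC was 0.12 in WT and -0.28 in Rab44-KO, a difference of -0.40, and on TPM the sign in WT was reversed. Neither difference was tested, since there was 1 library per group.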

How the results depend on the processing

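No member of the 20 followed through 468 alternative values had a called direction reversed, and 459 of the values lay within the counting interval of the reported one. The other 9 were 7 on TPM and 2 with the length trend removed. The other scalings and the prior count of 2 moved the median of all genes by at most 0.07, so they could change little. With a count minimum of 1, there was 1 member over 2-fold lower in Rab44-KO under normal conditions, 2 were higher in Rab44-KO under OVA-induced conditions, and 4 were higher after OVA in Rab44-KO, while the counts over all genes rose to 2521, 4404 and 3937. With a count minimum of 50, 6 members were lower in OVA-induced Rab44-KO and 9 were higher after OVA in WT, with 791 and 989 of all genes. On TPM the OVA-induced median of Rab44-KO over WT was -0.21, and 8 members were higher after OVA in WT. With the length trend removed, 1 member and 1056 of all genes were lower after OVA in WT. Requiring the interval to lie wholly beyond 2-fold left 5 members lower in OVA-induced Rab44-KO, 4 higher and 0 lower after OVA in WT, and 0 higher and 1 lower after OVA in Rab44-KO, against 532, 814, 200, 365 and 147 of all genes in this order. Over all genes compared, the trend of Rab44-KO over WT under OVA-induced conditions ran from -0.40 in the shortest 25% of genes to 0.32 in the longest 25%. With it removed, 1101 of all genes were over 2-fold lower, against 1413 before. Tnfsf9, at -0.81, and Tnf, at -0.86, were then under 2-fold, while Ltb was at -1.09. The cause of these shifts was not tested. With 1 library per group, no replicate could be left out, and 7 of the 12 members lower in OVA-induced Rab44-KO had intervals that reached inside 2-fold.
No paired analysis was possible because each group held 1 library.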
